A study of Mus musculus with 17 samples.

Results

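Spermiogenesis is the stage in which round haploid spermatids become sperm, and 46 autosomal genes that serve it were scored here for the histone variant H3.3 in meiotic spermatocytes. The genes were listed by known role, from the proteins that package the sperm nucleus to those of the acrosome, the tail and its calcium channel, and most are active after meiosis. They are 46 of the 20807 protein-coding genes that GENCODE release M21 places on the mouse autosomes (build mm10). A gene was called when a row of an H3.3 peak list had at least 1 bp within 1 kb of the start of any of its transcripts. H3.3 is a replacement histone that is put into chromatin outside DNA replication, and it collects at active promoters and, in male meiosis, on the silenced sex chromosomes. In spermatids most histones are then exchanged for transition proteins and finally protamines, which compact the paternal genome. The promoters of many haploid genes are short and poor in CpG dinucleotides.

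The series comprises 17 CUT&RUN libraries of pachytene spermatocytes, of which 5 profile H3.3 (2 from Arid1a WT and 3 from Arid1a cKO males) and 12 profile ARID1A, the DNA-binding subunit of the canonical BAF remodelling complex. The 12 ARID1A libraries are not analysed here. Conditional knockouts were Arid1a fl/fl males on a CD1 background that carried Stra8-Cre, a transgene driving Cre in spermatogonia, and WT males carried floxed Arid1a without Cre. Cells were sorted by size through sedimentation from pooled adult testes, so a library is a pool of males and the fractions were enriched rather than pure. Excision by Stra8-Cre is incomplete in this line, so some cKO cells keep ARID1A, and spermatocytes without it stop at mid-pachynema. The control for the peaks was 1 library of rabbit IgG from different work, on pachytene-enriched cells of juvenile rather than adult testes. The authors overlapped the replicate peaks into 1 list per genotype. No spread between replicates can therefore be had from the files, the sequencing depth is unknown, and no difference between genotypes was tested.

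The WT list held 228 rows, of which 4 lay on autosomes, and the cKO list held 12183 rows. Rows of the cKO list that overlapped were merged into 6552 regions, 6179 of them autosomal, with a median fold enrichment over IgG of 3.95 and a median width of 420 bp. For the labelled cell type, 24 of 39 genes of meiotic prophase and 0 of 16 markers of the somatic testis cells had a cKO row at a start, beside 29.5% of all autosomal coding genes. The lists also differed in CpG-rich starts, which 26 of the 39 and 2 of the 16 had (CpG-rich as defined further on), so a peak list is a weak check of cell identity.

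Sequences of 4 genes are shown first, because starts with and without a row differed in CpG content. Each is the DNA just before the RefSeq start, read 5′ to 3′ on the strand of the gene from RefSeq build GRCm38.p6 and without annotated untranslated bases, with every CG dinucleotide in capitals. The stretch before Spata18 (chr5:73651130-73651378, plus strand) holds 24 CG in 249 bases and lies under a cKO region. The stretch before Tnp2 (chr16:10788661-10788905, minus strand) holds 2 CG in 245 bases, and the region of this gene begins only downstream of its start. The stretches before Prm1 (chr16:10796887-10797073, minus strand) and Acrv1 (chr9:36692970-36693219, plus strand) hold 0 CG in 187 and 250 bases, and neither gene had a row. These examples do not represent all genes without a row, as Crem, Zpbp2 and Dpy19l2 had none although their starts were CpG-rich.
Spata18: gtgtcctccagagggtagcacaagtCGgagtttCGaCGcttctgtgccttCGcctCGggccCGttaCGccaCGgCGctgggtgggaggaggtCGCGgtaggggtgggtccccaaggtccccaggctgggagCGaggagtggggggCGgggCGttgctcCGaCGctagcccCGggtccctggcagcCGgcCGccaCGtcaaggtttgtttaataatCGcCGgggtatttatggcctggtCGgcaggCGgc
Tnp2: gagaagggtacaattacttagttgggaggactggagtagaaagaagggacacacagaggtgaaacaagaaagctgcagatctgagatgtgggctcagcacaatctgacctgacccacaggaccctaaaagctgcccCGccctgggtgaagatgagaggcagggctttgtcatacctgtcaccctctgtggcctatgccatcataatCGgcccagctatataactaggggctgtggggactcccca
Prm1: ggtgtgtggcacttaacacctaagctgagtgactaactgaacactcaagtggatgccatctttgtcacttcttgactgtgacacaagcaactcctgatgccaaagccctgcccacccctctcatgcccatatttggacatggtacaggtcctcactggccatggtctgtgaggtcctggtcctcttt
Acrv1: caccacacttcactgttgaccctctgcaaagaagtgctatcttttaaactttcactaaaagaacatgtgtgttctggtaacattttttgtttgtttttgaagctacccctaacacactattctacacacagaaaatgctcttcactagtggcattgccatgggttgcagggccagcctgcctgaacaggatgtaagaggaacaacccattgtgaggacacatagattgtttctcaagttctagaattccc

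In Arid1a cKO spermatocytes 9 of the 46 spermiogenesis genes (19.6%, 95% Wilson interval 10.7 to 33.2%) had an H3.3 row at a start, against 29.5% of all autosomal protein-coding genes (6145 of 20807, interval 28.9 to 30.2%). The interval of the 46 genes includes the share of all genes. Such intervals cover counting error only. The 9 genes were Catsper2, Odf2, Tnp2, Tssk6, Meig1, Spata18, Spag16, Spaca1 and Zpbp. In the WT list 0 of the 46 genes had a row at a start, and the background was 0.0% (0 of 20807), so the WT list says nothing particular about spermiogenesis genes. Nor does it show that autosomal starts lack H3.3 in WT. In averaged coverage, the paper reports H3.3 above IgG at starts of ARID1A-regulated autosomal genes, which appeared stronger in cKO than in WT. Only 9 of the 46 genes lay on a chromosome with any WT region, and the nearest of these was Smcp, 1.11 Mb away.

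**Figure D1:**
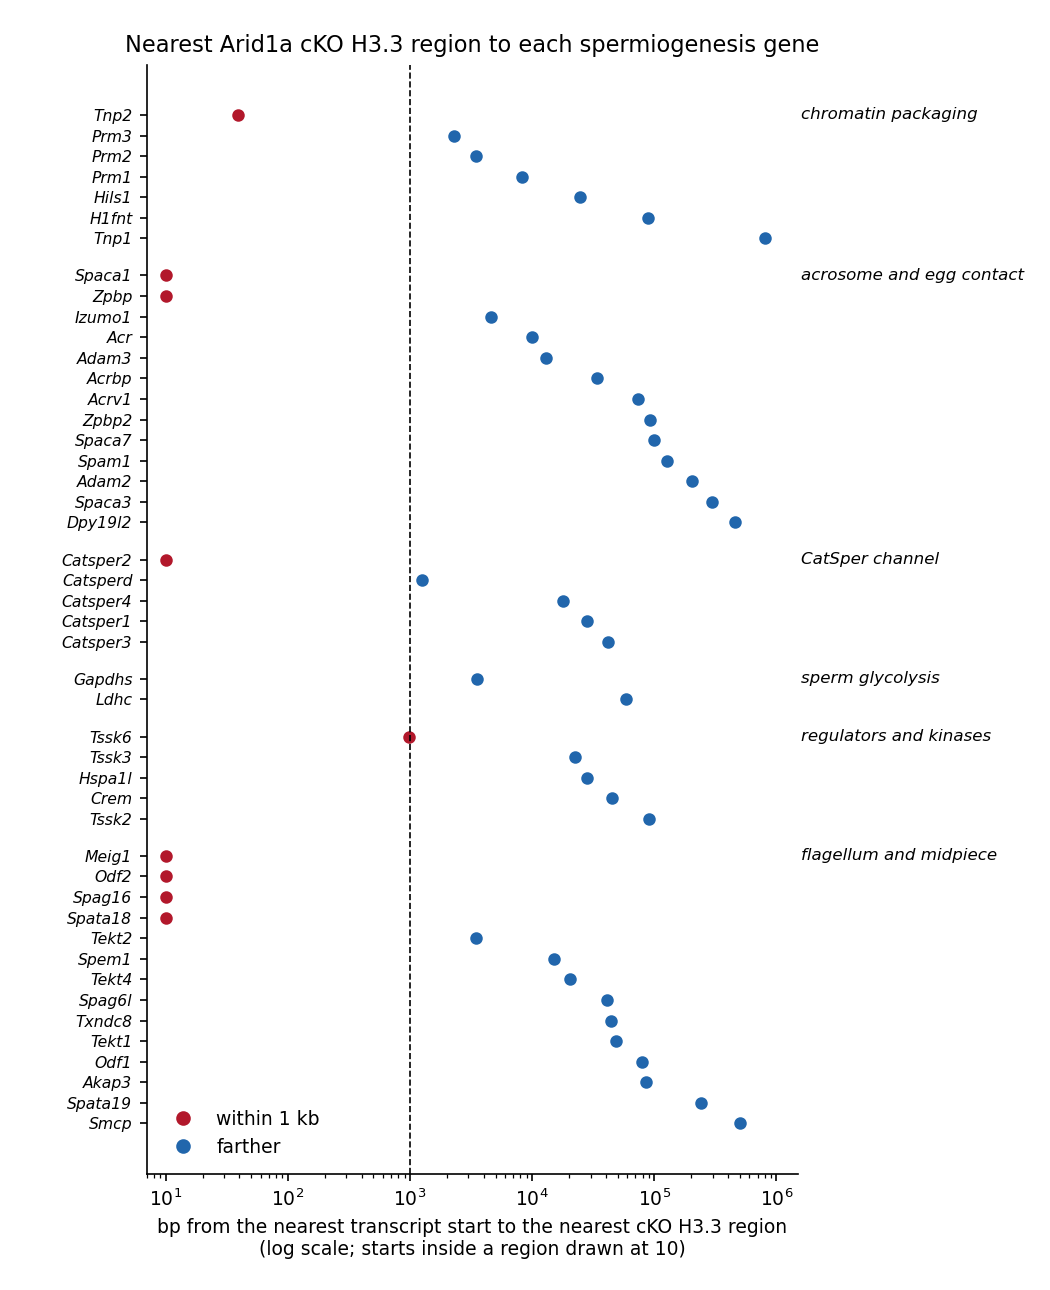
Distance in bp, on a log scale, from each gene's nearest transcript start to the nearest merged cKO H3.3 region, with 1 point per gene grouped by role and a dashed line at 1 kb. The 9 genes within 1 kb are red, and starts inside a region are drawn at 10; the other 37 lie between 1.24 and 804 kb.

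The chromatin packaging genes encode the proteins that replace histones on the way to the sperm nucleus, and 1 of 7 was called. This was Tnp2, transition protein 2, with a fold of 4.09 over IgG in a region of 300 bp (chr16:10788322-10788621). The region did not touch the start of Tnp2 but ran from 39 to 338 bp downstream of it, inside the gene, and covered 280 bp of coding sequence and 20 bp of untranslated exon. Those coding bases (chr16:10788322-10788601, minus strand) are shown because the enrichment lies on them rather than on the promoter printed above, again with CG in capitals, of which there are 10.
Tnp2 coding: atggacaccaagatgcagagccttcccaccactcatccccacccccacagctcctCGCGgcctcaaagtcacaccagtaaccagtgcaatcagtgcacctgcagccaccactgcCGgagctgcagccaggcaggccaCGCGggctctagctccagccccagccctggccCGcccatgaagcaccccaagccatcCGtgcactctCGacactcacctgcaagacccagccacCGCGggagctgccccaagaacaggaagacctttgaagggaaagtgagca

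The coding stretch of Tnp2 is 63.2% GC but CpG-poor. Over the whole region the observed over expected CpG ratio was 0.39, the lowest of the 9 called genes, whose other regions ranged from 0.72 to 0.98. Across all 6179 autosomal cKO regions the median ratio was 0.86, and 1.49% of regions had a ratio at or below that of Tnp2. The protamine genes share the cluster of Tnp2 on chromosome 16, and for each of them the Tnp2 region was the nearest one. Protamine 3 (Prm3) was 2.29 kb from it, protamine 2 (Prm2) 3.48 kb and protamine 1 (Prm1) 8.27 kb. Of the packaging genes elsewhere, the linker histone genes Hils1 and H1fnt were 24.5 and 89.0 kb from a region. Tnp1, transition protein 1, was farther from any cKO region than the other 45 genes, at 804 kb. Tnp1 and Tnp2 act at the same step but sat at opposite ends of the range of distances within this group.

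Of the 13 genes of the acrosome and of contact with the egg, 2 were called, Spaca1 and Zpbp, and both had low folds. Spaca1, a membrane protein needed to shape the acrosome, had a fold of 3.14 in a region of 328 bp (chr4:34049827-34050154) across its start. Zpbp, a zona pellucida binding protein, had a fold of 2.91 in 218 bp (chr11:11462233-11462450), and 3.24% of called genes had a lower fold. Its region was centred 67 bp downstream of the Zpbp start and 247 bp from the start of Spata48, which runs the other way. In the region of Zpbp the CpG ratio was 0.78, whereas the 250 bases before its RefSeq start (chr11:11462420-11462669, minus strand) held 4 CG at a ratio of 0.29. The region crosses the start and reaches 42 bp upstream of it, so it shares some bases with this stretch. That upstream stretch is shown for this contrast.
Zpbp: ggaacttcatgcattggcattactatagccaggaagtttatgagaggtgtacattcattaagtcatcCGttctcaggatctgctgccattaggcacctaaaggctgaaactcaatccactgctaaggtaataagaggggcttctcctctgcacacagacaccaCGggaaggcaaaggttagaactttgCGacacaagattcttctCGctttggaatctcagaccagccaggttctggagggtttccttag

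No row was found at the starts of the other 11 acrosomal and sperm surface genes. Izumo1, which binds the egg receptor, was nearest at 4.62 kb, followed by the acrosin gene Acr at 9.92 kb and the surface protease-like gene Adam3 at 13.0 kb. Acrbp, which binds proacrosin, was 33.8 kb away, Acrv1, an acrosomal matrix protein gene, 74.1 kb, Zpbp2 92.8 kb and Spaca7 98.7 kb. The hyaluronidase gene Spam1, the sperm surface gene Adam2 and the lysozyme-like Spaca3 were at 126, 203 and 294 kb. Dpy19l2, which anchors the acrosome to the nucleus, was the farthest at 455 kb. The 11 uncalled genes of this group were thus spread from 4.62 to 455 kb.

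The CatSper channel carries calcium into the sperm tail, and 1 of its 5 genes was called. Catsper2, a pore subunit, had the highest fold of all called spermiogenesis genes, 8.44, in a region of 879 bp (chr2:121413411-121414289), and 99.0% of all called genes had a lower fold. The gene shares this start with Pdia3, a disulfide isomerase gene of the endoplasmic reticulum transcribed the other way. The centre of the region lay 33 bp from a Pdia3 start and 58 bp upstream of the Catsper2 start. The strongest signal among the called spermiogenesis genes thus cannot be told apart from that of a neighbour. Catsperd, an auxiliary subunit, lay just outside the limit with a region 1.24 kb from its start, where the centre of the region was 86 bp from the start of Lonp1. Tssk6 was the called gene nearest to the limit, at 983 bp. The pore subunit genes Catsper4, Catsper1 and Catsper3 were 17.8, 28.2 and 41.6 kb from a region. Sperm-specific glycolysis was represented by 2 genes and 0 were called, Gapdhs at 3.53 kb, where the start of Tmem147 was 46 bp from the region's centre, and Ldhc at 58.2 kb.

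Among 5 regulators and kinases 1 was called, Tssk6, a testis-specific serine kinase that acts in late spermatids. Its row had a fold of 4.05 in 233 bp (chr8:69903167-69903399), but it lay 983 to 1215 bp downstream of the Tssk6 start in the untranslated end of this gene. The start of Yjefn3, at 571 bp from the centre of the region, was nearer than that of Tssk6. Tssk3 and Tssk2, kinases of the same family, were 22.5 and 90.9 kb from a region, and the testis heat shock gene Hspa1l was at 28.1 kb. Crem, the transcription factor that drives many haploid promoters, was 45.2 kb from a region even though it had 26 annotated starts and, at 1.09, the highest CpG ratio of the 46 genes.

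Of the 14 genes of the flagellum and midpiece, the largest group, 4 were called (28.6%, interval 11.7 to 54.6%), a share near the 29.5% of all genes. All 4 had a region lying across a start. Odf2, a protein of the outer dense fibres and of centrosomes, had a fold of 6.59 in 777 bp (chr2:29889675-29890451), centred on a start of the gene, with 93.8% of called genes lower. Meig1, which works with the manchette of elongating spermatids, had a fold of 3.87 in 289 bp (chr2:3418922-3419210). Spata18, a mitochondrial quality control gene, had 3.62 in 420 bp (chr5:73651052-73651471), centred 118 bp upstream. Spag16, of the central apparatus of the axoneme, had 3.57 in 313 bp (chr1:69826894-69827206). Odf2 and Spata18 are used in cells other than spermatids too.

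No row was found at the other 10 tail genes. Tekt2, a tektin of the axoneme, was 3.44 kb from a region whose centre lay 69 bp from the start of Adprhl2. Spem1, needed to shed cytoplasm, was at 15.0 kb, and Tekt4 and Tekt1 were at 20.2 and 48.8 kb. The central apparatus gene Spag6l was at 41.3 kb, the spermatid thioredoxin gene Txndc8 at 43.8 kb, the outer dense fibre gene Odf1 at 79.6 kb and the fibrous sheath anchor Akap3 at 86.0 kb. Both genes of the mitochondrial sheath lay farther out, Spata19 at 241 kb and Smcp at 504 kb. Some pairs of like function were again unequal, as Odf2 was called and Odf1 was not, and Spag16 was called and Spag6l was not. Others were alike, as none of Tekt1, Tekt2 and Tekt4 was called and neither Spata19 nor Smcp was.

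**Figure D2:**
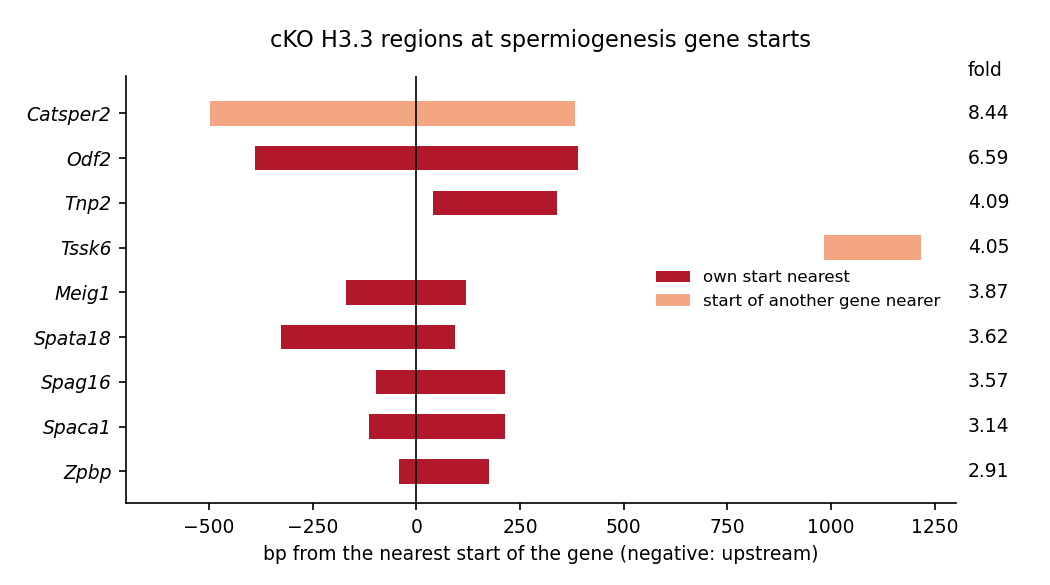
Position of the merged cKO H3.3 region at each of the 9 called genes, in bp from the nearest start of the gene with upstream to the left, and its fold enrichment over IgG at the right. The region crosses the start in 7 genes and lies wholly downstream in Tnp2 and Tssk6; the lighter bars, Catsper2 and Tssk6, have the start of another gene nearer.

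The 9 regions were mostly modest in height and width. Their median fold was 3.87 and their median width 313 bp, beside 4.12 and 450 bp over the 6145 called genes. Catsper2 and Odf2 exceeded both of these medians, and the other 7 genes exceeded neither. The −log10 q of the peak caller was 12.4 for Catsper2 and 8.53 for Odf2, and ranged from 2.11 in Zpbp to 4.42 in Tnp2 among the rest. In 8 of the 9 genes (88.9%) the region was made of 2 overlapping rows of the combined cKO list, and Meig1 had 1, beside 91.6% of all called genes with 2 or more. The rows of such a region carried 1 peak name, as pieces of a single peak, and are not independent support. With a call allowed only where no start of another gene was nearer, 7 of the 46 genes (15.2%) were called against 24.8% of all genes, and the 2 lost were Catsper2 and Tssk6.

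**Figure D3:**
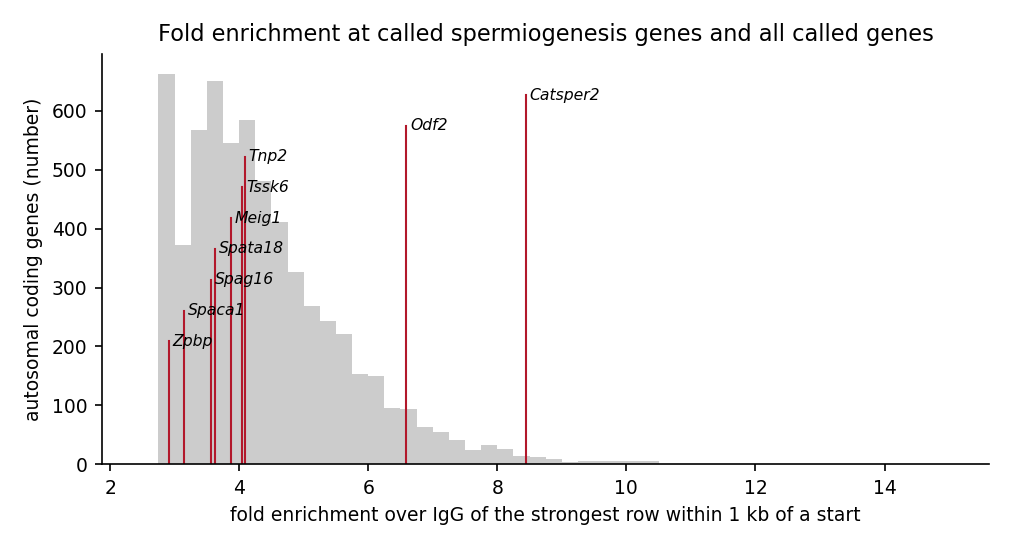
Fold enrichment over IgG of the strongest cKO row at the start of each called gene; grey bars count the 6145 called autosomal coding genes in steps of 0.25, and red lines of arbitrary height mark the 9 spermiogenesis genes. Catsper2 (8.44) and Odf2 (6.59) stand in the upper tail, and the other 7 lie between 2.91 and 4.09.

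CpG content was measured in the 500 bp on either side of the outermost start of each gene, as GC content and as the number of CpG dinucleotides observed over that expected from the bases. A start was taken as CpG-rich with a ratio of at least 0.6 and GC of at least 50%. The spermiogenesis genes had few such starts, 8 of 46 (17.4%) against 45.7% of all genes, and their median ratio was 0.34 against 0.57. Of the 8 CpG-rich starts 5 were called (62.5%), namely Zpbp, Catsper2, Tssk6, Odf2 and Spata18, beside 54.6% of all genes with CpG-rich starts. The 3 without a row were Zpbp2, Dpy19l2 and Crem. Of the 38 other starts 4 were called (10.5%), namely Tnp2, Spaca1, Meig1 and Spag16, beside 8.45% of all such genes. Within neither class was the share of spermiogenesis genes below that of all genes, although their share over both classes was lower. The 5 CpG-rich calls include Catsper2 and Tssk6, where the start of another gene lay nearer to the region. Shares by class were not computed with such calls left out. The classes hold only 8 and 38 of the 46 genes, and no interval is given for them. Whether CpG content accounts for the lower share was not tested.

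The called spermiogenesis genes had a median CpG ratio of 0.66 (range 0.31 to 0.87), and the 37 without a row had 0.28 (0.02 to 1.09). Acrv1 was the lowest of all at 0.02, and Spam1 had 0.03. Meig1 was called at an inner start, with a ratio of 0.39 at its outermost start and 0.87 at its richest. Spaca1 at 0.58 and Spag16 at 0.53 lay just under the limit, so that of the genes outside the CpG-rich class Tnp2 at 0.31 was the one called gene with no CpG-rich or nearly CpG-rich start. Across all genes the same order was seen, with a median ratio of 0.78 in those called and 0.36 in those not called.

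**Figure D4:**
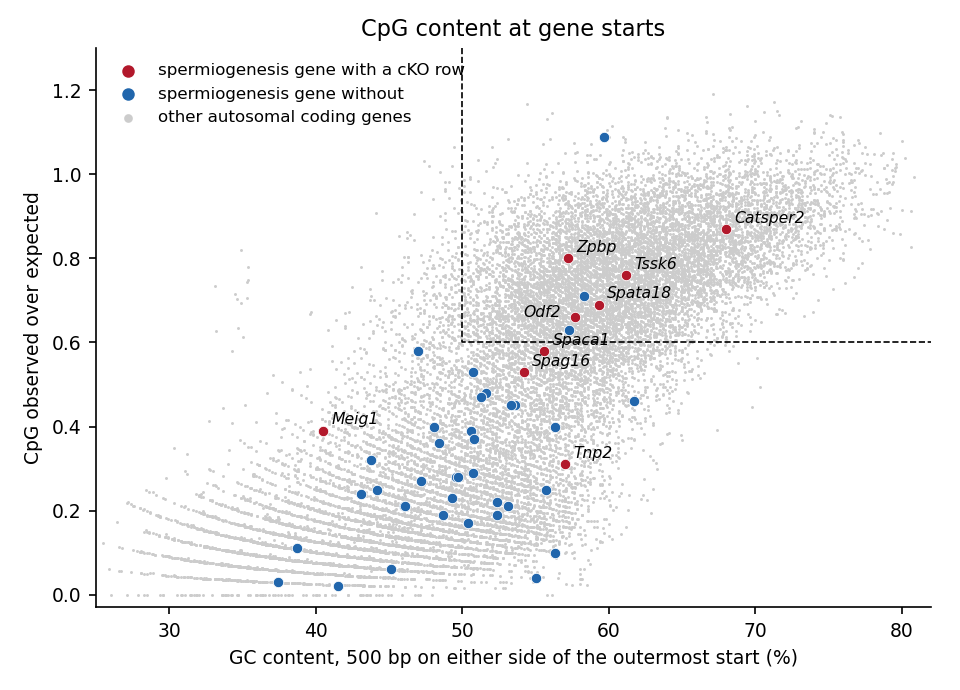
CpG observed over expected against GC content in the 500 bp on either side of the outermost start, with 1 point per autosomal coding gene and the dashed corner enclosing CpG-rich starts. Of the 46 spermiogenesis genes, 8 lie in the corner, 5 of them with a cKO row (red, named); the blue point above the rest is Crem at 1.09.

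Motifs of haploid gene promoters were searched from 250 bp before to 50 bp after the outermost start. Inner starts were not searched, so the promoter used in spermatids can lie outside the window. For Prm1 the outermost start is at chr16:10805839, and the stretch before its RefSeq start printed above (chr16:10796887-10797073) was not searched. The cyclic AMP response element, which CREM binds, was searched on both strands in full as TGACGTCA and as its shorter core TGACG, which the full element contains. The full element was found in 1 of the 46 genes (2.17%), Izumo1, beside 2.43% of all genes. The core was found in 14 genes (30.4%) beside 23.4%. The TATA box TATAAA, on the strand of the gene, was found in 2 genes (4.35%), Catsper3 and Tekt1, beside 8.7%. A match to these letters is a description of the window and not evidence of a bound site.

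The 37 genes without a row lay closer to cKO regions than uncalled genes in general. Their median distance was 41.6 kb (1.24 to 804 kb) against 98.7 kb over 14662 uncalled genes, 8 of 37 (21.6%) were within 10 kb against 7.52%, and 7 of 37 (18.9%) were beyond 100 kb against 49.8%. For 32 of the 37 (86.5%) the centre of the nearest region was within 1 kb of a start of another gene, a protein-coding gene in 30 (81.1%), beside 89.2% and 83.7% of all uncalled genes, so in this the 37 were near the background. A region within the gene body was found in 0 of the 37, beside 1.98% of all uncalled genes. Examples are Ldhc, whose nearest region was centred 8 bp from a Tsg101 start, Acrbp with Chd4 at 69 bp and Spag6l with Top3b at 33 bp. For all 3 protamine genes the neighbour was a spermiogenesis gene itself, Tnp2.

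Neighbouring starts also touched the 46 genes directly. A start of another gene lay within 1 kb of a start in 16 of them (34.8%, beside 27.1% of all genes), and a start of a coding gene in 8 (17.4%, beside 14.9%). Of these 8, 3 were called (Catsper2, Zpbp and Tssk6), or 37.5%, beside 55.9% of all genes with such a neighbour. Prm1 and Prm2 lay within 1 kb of each other and neither was called.

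Other gene lists of the testis were scored in the same way. Of 73 further spermiogenesis genes, 19 were called (26.0%, interval 17.3 to 37.1%), with a median fold of 3.64. The highest folds among them were 5.86 for Ropn1l, a fibrous sheath protein, 5.11 for the sperm proprotein convertase Pcsk4, 4.87 for Gopc, a Golgi protein of acrosome formation, 4.77 for the histone demethylase Kdm3a and 4.69 for the sperm enolase Eno4. Of these 5, only Pcsk4 was not CpG-rich at its outermost start, with a ratio of 0.45. Of 18 CpG-rich starts in this list 13 were called (72.2%) and of 55 others 6 (10.9%), beside 62.5% and 10.5% in the 46 genes.

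Genes of meiotic prophase were called in 24 of 39 (61.5%, interval 45.9 to 75.1%), and cytosolic ribosomal protein genes in 48 of 76 (63.2%, 51.9 to 73.1%). The intervals of both lists lay above the share of all genes and above that of the 46 spermiogenesis genes. Of the meiotic genes 66.7% had a CpG-rich outermost start. Of the other 13, 6 were called (46.2%), beside 4 of 38 (10.5%) in the spermiogenesis genes and 8.45% of all such genes. At the outermost start, Tex15, Majin, Terb1 and Syce1 of these 6 lay near the CpG limit, with ratios of 0.6, 0.57, 0.57 and 0.52. Spo11 at 0.23 and Piwil1 at 0.22 lay well below it there. A call can rest on an inner start, and the CpG content of inner starts is not given for these genes. Of the ribosomal genes 84.2% had CpG-rich starts, of which 68.8% were called. Markers of the somatic testis cells were called in 0 of 16 (interval 0.0 to 19.4%), of which 2 (12.5%) had CpG-rich starts against 45.7% of all genes. These shares describe 1 combined list without replicates, and no difference between the gene lists was tested.

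**Figure D5:**
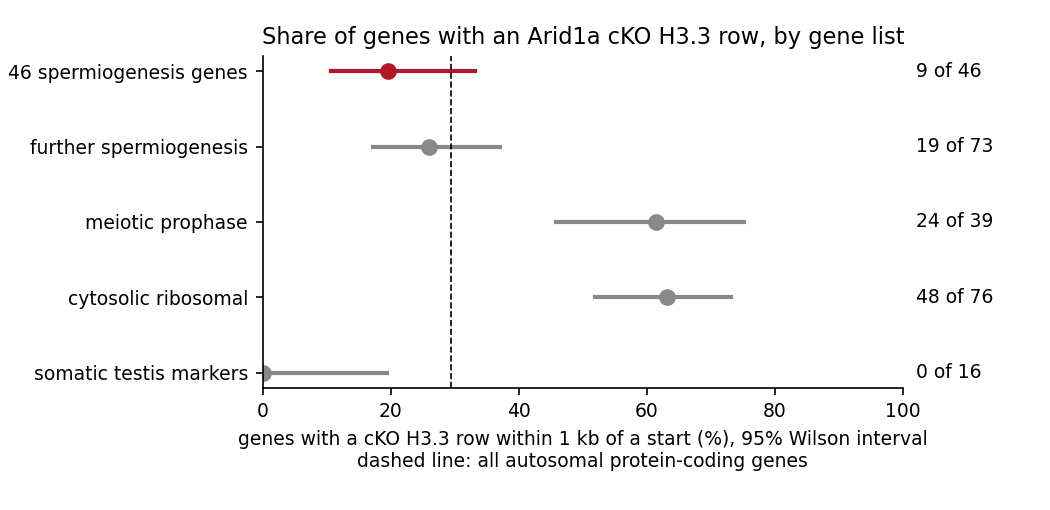
Percent of genes with a cKO H3.3 row within 1 kb of a start in each list, with the 95% Wilson interval (counting error only) and the count at the right; the dashed line is the share of all autosomal coding genes, 29.5%. The interval of the 46 spermiogenesis genes (10.7 to 33.2%) spans the line, whereas those of meiotic and ribosomal genes lie above it and that of somatic markers below it; the lists differ in CpG-rich starts, from 12.5% of the somatic markers to 84.2% of the ribosomal genes.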

How the data were processed

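H3.3 was profiled by CUT&RUN in pachytene spermatocytes of Arid1a WT and cKO males. The authors trimmed reads (Trim Galore), aligned them to mm10 (Bowtie2), removed duplicates (Picard), called broad peaks per library against IgG (MACS2) and overlapped replicates into 1 deposited list per genotype. Each row of the deposited lists holds a fold enrichment ratio over IgG (column 7) and a −log10 q value (ninth column), both set by MACS2 before deposit; these depend on depth, which the lists do not give. Rows present in fewer replicates may be missing, so a gene without a row is not shown to lack H3.3.

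From the lists, rows overlapping by 1 bp were merged, and genes were called within 1000 bp of any GENCODE M21 transcript start (Python 3.11.15, pandas 2.3.3, scipy 1.17.1). The highest fold per gene was used. Calling and merging were tested on simulated peaks. Shares carry 95% Wilson intervals. No test was run. Every gene is named, called genes with position and values, and of the further spermiogenesis genes the 5 with the highest fold. The genes, lists and comparisons were chosen with earlier results of these data known. Of the lists, 3 further spermiogenesis genes (Akap14, Sp17 and Septin12) and 1 meiotic gene (Tex11) matched no autosomal coding gene name. The promoter table of RefSeq held 39 of the 46 genes. Alternatives for the window, the starts, the q value, the number of rows, the nearest start and the CpG limit were tried.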

Additional observations from a re-analysis of the deposited data

How the results depend on the processing

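Of 17 alternatives run over 4 results, 14 stayed within 1.5 times the count or within the spread of the value. The number of spermiogenesis genes with a cKO row, 9 of 46 (19.6%), ranged from 6 to 10 under all alternatives except the strictest threshold. With rows of −log10 q of at least 5 it fell to 2 (4.35%, against 9.56% of all genes), Catsper2 and Odf2, and with at least 3 it was 6 (13.0% against 20.8%), without Spaca1, Zpbp and Tssk6. The median fold moved from 3.87 to 3.98 with −log10 q of at least 3. With a CpG ratio of at least 0.75, 3 of 4 CpG-rich starts were called (75.0% against 61.8%), fewer because fewer starts passed. With the start of highest CpG ratio in each gene used instead, 6 of 10 CpG-rich genes were called (60.0% against 52.9%), and Meig1 joined them. A window of 500 bp, region centres, or 1000 bp before to 100 bp after the start each lost Tssk6, 1 start per gene or 2 overlapping rows set the count at 8, and a window of 2000 bp added Catsperd. Curated RefSeq transcripts, chosen after seeing the data, called 10 of 45 (22.2% against 29.6%). In the WT list the count was 0 under both alternatives. No paired analysis was possible because the files hold 1 combined list per genotype. Leaving out single replicates was not possible either. Depth is unknown and limits what a missing row shows.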
